A study of Triticum aestivum with 3 samples.

Results

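The regions described here are places on the D chromosomes of bread wheat that CUT&Tag for TaSPL6-D found in both replicates, that held no peak of the mock library, and that lay more than 10 kb from any other such place. Overlapping peaks of the 2 replicates, by at least 1 bp, were merged into 7403 shared regions. On the D chromosomes 1449 of 1676 shared regions held no mock peak (86.5%), against 5957 of 7403 on all sequence (80.5%). Of these 1449, 1107 had their midpoint more than 10 kb from the midpoint of every other mock-free region, and they are called the isolated D regions below. The other 342 were clustered. The same rule gave 1210 regions on the A chromosomes, 1377 on the B chromosomes and 585 on unplaced sequence. The members were thus chosen by measured values, namely the authors' peak calls in all 3 libraries and the distances between them, so their presence in both replicates and absence from the mock describe the choice and test nothing.

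The series holds 3 libraries, 2 from TaSPL6-D CUT&Tag and 1 mock. All came from wheat seedling protoplasts that had been transformed with PEG, and an anti-GFP or an IgG antibody was then added to the nuclei. The labels title the third library both mock and input. Its antibody and construct, and for every group the wheat line, plant age and promoter, are not stated in them. Protoplasts are cells without walls taken out of their tissue, and a transformed construct is expressed in them only briefly. Separate preparations for the replicates are not stated either, and their spread may then be technical.

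TaSPL6-D belongs to the SBP-box (SPL) family of plant transcription factors, which bind DNA through a zinc-binding domain and act in flowering, shoot architecture and stress responses. The name places it on the D subgenome, one of the A, B and D chromosome sets that make up bread wheat, each with its own copy of most genes. CUT&Tag uses an antibody to bring a transposase to a chromatin protein, so that DNA near that protein is cut, tagged and sequenced. The transposase also cuts open chromatin without a target protein, for which a mock or IgG library serves as a measure. The sequence of the regions was not used here, so whether they hold the GTAC core of SBP-box sites was not tested.

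The isolated D regions were narrow and low. Their median width was 304 bp (quartiles 228 to 436, range 159 to 1418). The median number of fragments at the summit, solved from the authors' deposited values, was 11 in replicate 1 (quartiles 9 to 14, range 6 to 888) and 10 in replicate 2 (8 to 12, range 6 to 789). The authors' fold enrichment over local background had medians of 6.08 in replicate 1 and 6.04 in replicate 2, with highest values of 40.1 and 36.7. Each region therefore rested on few fragments: 74 of 1107 had 25 or more in replicate 1, and 13 had 50 or more. The surrounding 10 kb carried a median of 46.0 fragments in replicate 1 and 39.0 in replicate 2. The lowest background used by the peak caller was 41.2 and 29.6, so the median lay closer to it in replicate 1. In 38.8% of the regions in replicate 1, and in 27.9% in replicate 2, the background was at that lowest value.

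The rule required the peaks of the replicates to overlap, and within the regions most of their summits lay close together. Of the 1107 regions, 1095 were made of 1 peak from each replicate. The summits of the replicates lay a median of 5 bp apart, 75.1% lay within 50 bp, and the farthest were 535 bp apart. Across regions, fragments in the replicates had a Spearman correlation of 0.851 (n = 1107) and folds one of 0.825. These points share their libraries and a common call threshold, so the values describe and do not test. Replicate 2 had fewer fragments in 654 regions, the same number in 300 and more in 153. Its genome-wide background, taken as its depth, was 0.718 of that of replicate 1. The median ratio of replicate 2 to replicate 1 was 0.909 over all members and 0.736 in the 74 regions of 25 or more replicate 1 fragments. Sorted by replicate 2 instead, the median ratio was 0.830 at 15 to 24 fragments, 0.833 at 25 to 49 and 0.781 at 50 or more. The ratio of tall regions thus differed with the replicate that picked them. Every member has at least 6 fragments in each replicate, which keeps the ratio of low members from falling far. At 6 to 8 replicate 1 fragments its median was 1, so the higher ratio of low members is no finding.

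**Figure D1:**
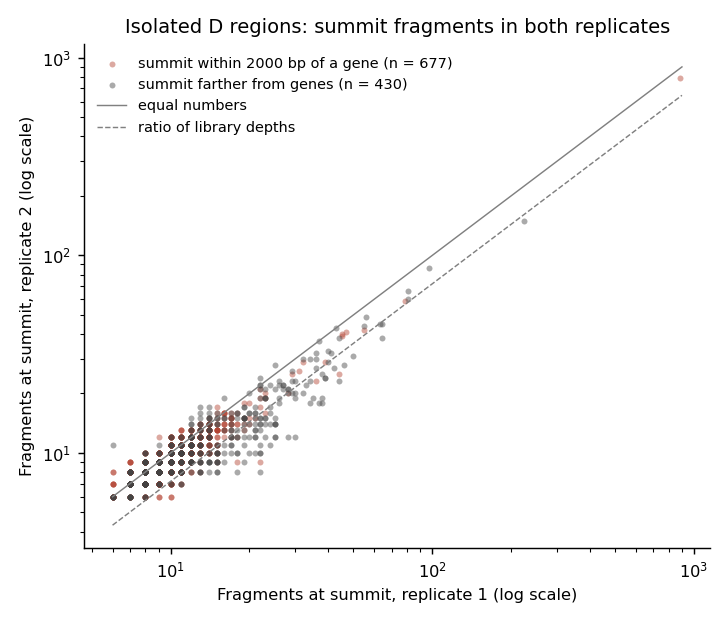
Fragments at the summit of each isolated D region in replicate 1 (horizontal, log scale) and replicate 2 (vertical, log scale), coloured by distance of the summit from protein-coding genes (up to 2000 bp, or farther). The 677 regions at genes crowd at low numbers, while most of the 74 regions of 25 or more replicate 1 fragments are among the 430 farther from genes, nearer to the dashed line of the depth ratio of 0.718 than the low ones. Every region has at least 6 fragments in each replicate, which bounds the ratio of the low ones. Picked by replicate 2, the regions of 25 to 49 fragments had a median ratio of 0.833, and those of 50 or more one of 0.781.

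Most isolated D regions lay at protein-coding genes. Gene positions came from the RefSeq table of IWGSC CS RefSeq v2.1. Of the 1107 summits, 498 were inside a gene (45%, Wilson 95% interval 42.1 to 47.9%) and 179 more were within 2000 bp of one. Together 677 were in or near a gene (61.2%, 58.3 to 64.0%), on 6.38% of the D sequence. Genes themselves cover 3.53% of it. When only peaks whose −log10 q reached 5 were kept, the share was 46.4% of 517 members, at 261 genes, so most of those stronger regions were farther away. Of all 1107 members, the other 430 were farther away than 2000 bp, and 170 were over 50 kb from any gene. Intervals here cover counting over regions only, and neighbouring regions are not independent.

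With genes of all lengths pooled, the density of regions was highest at gene edges. The 250 bp just inside an edge held 115 regions, or 6.96 per Mb of such sequence, and the 250 bp just outside held 78, or 4.89 per Mb. Outside genes the density fell off with distance, with 2.43 per Mb from 250 to 500 bp, 1.45 from 500 to 1000 bp and 0.408 from 1000 to 2000 bp. Beyond 50 kb it was 0.0754 per Mb. Inside genes it was 1.64 per Mb at 1000 to 2000 bp from the nearer edge, but 4.42 per Mb at 3000 to 5000 bp and 3.27 per Mb deeper still. Genes up to 1000 bp, which lie wholly within 500 bp of an edge, held 15.6 regions per Mb. The table gives no strand, so the start and the end of a gene could not be told apart.

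**Figure D2:**
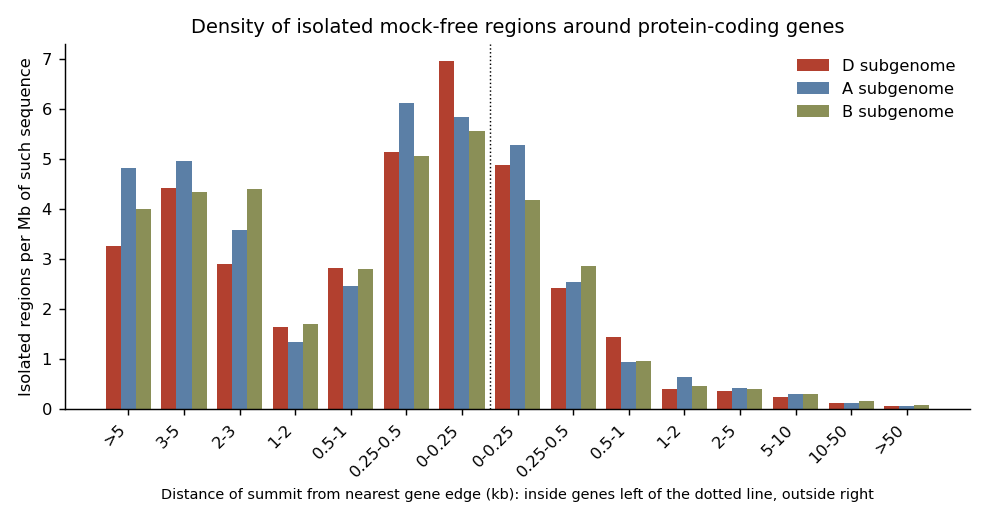
Isolated regions per Mb of sequence (vertical) by distance of the summit from the nearest protein-coding gene edge in kb (horizontal), inside genes on the left of the dotted line and outside on the right, for the D, A and B subgenomes. On D the bars reach 6.96 per Mb just inside the edge, dip to 1.64 at 1 to 2 kb inside and stand at 4.42 at 3 to 5 kb inside.

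The place of regions inside genes differed with the length of the gene. Genes of 2000 to 5000 bp had 73 of their 133 regions within 500 bp of an edge (5.07 per Mb) and 24 at 1000 to 2000 bp (1.40 per Mb). Genes over 10000 bp had the other order: 2 regions within 500 bp of an edge (0.952 per Mb), 11 at 2000 to 3000 bp (2.62 per Mb), 46 at 3000 to 5000 bp (5.47 per Mb) and 62 deeper (3.20 per Mb). The 46 regions at 3000 to 5000 bp had medians of 10 fragments in each replicate, as low as those at the edges of shorter genes. In A and B genes over 10000 bp, the 500 bp at the edges held 4 and 5 regions, and the stretch from 3000 to 5000 bp held 41 (4.63 per Mb) and 38 (4.04 per Mb). Edges of long genes held fewer regions per Mb than that stretch on all 3 subgenomes, in the same libraries, and these differences rest on few regions and were not tested.

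Genes over 10000 bp held regions more often than shorter ones. Of the 2101 D genes over 10000 bp, 128 held an isolated region (6.09%, Wilson 5.15 to 7.20%), against 133 of 14403 genes of 2000 to 5000 bp (0.923%, 0.780 to 1.09%). That class had the lowest share. It was 1.18% in genes up to 1000 bp, 1.23% at 1000 to 2000 bp and 1.62% at 5000 to 10000 bp. Per Mb of gene the order was different, with 15.6 regions in genes up to 1000 bp and 8.19 in genes of 1000 to 2000 bp. The density was 2.79 at 2000 to 5000 bp, 2.41 at 5000 to 10000 bp and 3.27 in genes over 10000 bp. Genes that held a region had a median span of 4357.5 bp, and all D genes one of 2922 bp. In all, 724 of 33718 D protein-coding genes had an isolated region within 2000 bp (2.15%). Of these, 720 had 1 region and 4 had 2. The 10 kb between members limits how many genes can hold 2 and favours long ones, so neither is a finding. Those 4 span 18097 to 58377 bp, with both regions inside: LOC123052692 on 2D, LOC123078311 on 3D, LOC123119958 on 5D and LOC123164521 on 7D. A summit lay near more than 1 gene for 48 regions, so which gene it belongs to cannot be told there.

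The gene share was lower among taller regions. It was 65.6% (Wilson 59.7 to 71.2%) of 259 regions with 6 to 8 fragments in replicate 1, 75.1% (69.5 to 80.0%) of 261 with 10 or 11, 62.4% (55.7 to 68.7%) of 210 with 12 to 14, and 38.1% (31.0 to 45.8%) of 160 with 15 to 24. Among the 61 regions of 25 to 49 fragments it was 16.4% (9.16 to 27.6%). The higher share at 10 or 11 fragments than at 6 to 8 was not seen on A (63.0% against 68.0%) or on B (63.4% against 65.6%). It was small with D regions ordered by replicate 2, at 68.5% (62.5 to 74.0%) for 10 or 11 fragments and 66.6% (61.6 to 71.2%) for 6 to 8. In that order the share was 26.4% (19.0 to 35.5%) at 15 to 24 fragments, 29.0% (16.1 to 46.6%) of 31 regions at 25 to 49, and 2 of 6 regions at 50 or more, so it did not fall further. Regions at genes had medians of 10 fragments in replicate 1 and 9 in replicate 2, against 12 and 10 for those farther away. Their local background was higher, with medians of 48 and 42.0 fragments per 10 kb, against 43.0 and 32.7. In replicate 1 it stood at its lowest value for 33.4% of regions at genes and 47.4% of the others. In replicate 2 these shares were 16.7% and 45.6%.

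**Figure D3:**
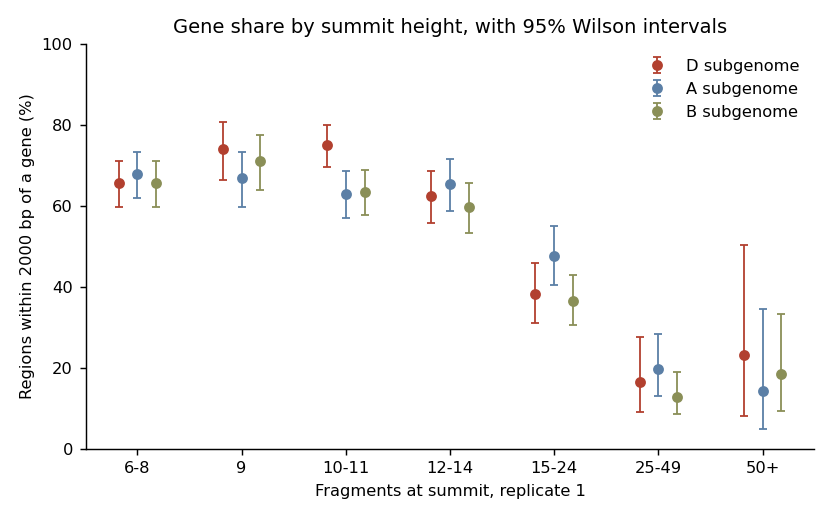
Share of isolated regions with the summit in or within 2000 bp of a protein-coding gene (vertical, percent, with 95% Wilson intervals) by fragments at the summit in replicate 1 (horizontal), for the D, A and B subgenomes. On D the share is 75.1% at 10 to 11 fragments and 16.4% at 25 to 49, and the class of 50 or more holds only 13 D regions.

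The 74 tallest members, with 25 or more fragments in replicate 1, stood mostly away from protein-coding genes. Only 13 lay in or within 2000 bp of one, and 48 were more than 10 kb from any. Within 2000 bp of a tRNA or rRNA gene lay 8 of the 74. Of the 74, 30 were in the outer 10% of a chromosome end (40.5%, Wilson 30.1 to 51.9%), against 25.4% of the other 1033 members. Another peak of either replicate lay within 10 kb of 41.9% of them, and of 15.9% of the others. Their local background had a median of 107 fragments per 10 kb in replicate 1 and 68.0 in replicate 2. They were spread over all 7 chromosomes, from 5 on 4D to 14 on 5D.

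The region of highest mean percentile rank of fold lay at the end of 7D, from 642910227 to 642910433. It had 224 fragments in replicate 1 and 149 in replicate 2, with folds of 40.1 and 36.7. Its nearest mock-free neighbour was 10309 bp away and its nearest protein-coding gene was 42430 bp away. The second, on 1D from 271923811 to 271924222, had 97 and 86 fragments, folds of 31.7 in each replicate, and a gene 6214 bp away. The third was inside a gene, LOC123123633. Of the first 10, 8 were farther than 2000 bp from any protein-coding gene. On 6D, 2 of them stood 15584 bp apart, at 439082053 to 439082359 (56 and 49 fragments) and 439097553 to 439098027 (63 and 45), and their summits were 81108 and 65586 bp from the nearest gene. Each of the 10 was at least 76450 bp from a mock peak.

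The gene with the strongest region was LOC123123633 on 5D, to which the table gives no common name. Its region, 540783467 to 540784062, had 888 fragments in replicate 1 and 789 in replicate 2, with folds of 31.6 and 31.3. The next tallest isolated D region had 224 and 149. The summit lay 615 bp inside the gene, which spans 6330 bp, and the summits of the replicates coincided. The surrounding 10 kb held 1740 and 1463 fragments, the highest background of any member, to which the region's own fragments contribute. No other peak of either replicate was called within 10 kb, and the nearest mock peak was 17309492 bp away.

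LOC123183204 on 1D (478552000 to 478552427) followed with 79 and 59 fragments, folds of 21.9 and 20.2, and a summit 796 bp inside a gene of 1643 bp. LOC123166275 on 7D (17900556 to 17901066) had 29 and 25 fragments and folds of 17.1 and 16.5, at 375 bp inside a gene of 831 bp. After these 3 the values dropped. The fourth gene, LOC123121835 on 5D, had 15 and 17 fragments and folds of 9.74 and 11.8, with its summit 872 bp outside the gene. The fifth, LOC123171373 on 7D, had 23 and 16 fragments and folds of 12 and 9.60, 1329 bp outside.

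The 20 genes ranked highest by mean percentile rank of fold had replicate 1 folds of 8.52 to 31.6, and replicate 2 folds of 8.19 to 31.3. The summit was inside the gene for 11 and outside for 9. Of the 20, 14 had 20 or fewer fragments in replicate 1. LOC123182938 (1D) and LOC123182993 (1D) had their summits 176 and 59 bp inside an edge. LOC123143391 (6D), LOC123097895 (4D) and LOC123077555 (3D) had them 220, 164 and 157 bp outside one. LOC123078380 (3D) and LOC123097986 (4D) had theirs deep within the gene, 3783 and 5417 bp from the nearer edge. LOC100037643 and LOC123097954 on 4D shared a single region, with its summit inside the first and 1075 bp outside the second.

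Among 62 D genes to which the table gives a common name or synonym, 2 had an isolated region within 2000 bp, beside 2.15% of all D genes, and so small a count sets named genes apart from no others. LOC542949 (TCTP, the translationally controlled tumour protein, a conserved protein of growing cells) had 11 and 8 fragments on 4D, from 134946082 to 134946575. Its folds were 6.68, above the member median of 6.08 in replicate 1, and 5.16, below the lower quartile of 5.37 in replicate 2. The summit was 512 bp outside the gene. LOC100049018, with the synonym rbcl (in plastids, the large subunit of Rubisco, the carbon-fixing enzyme), had 45 and 39 fragments on 2D, from 631260120 to 631260668. Its folds were 4.95 and 5.46 over a surrounding 10 kb with 531 and 381 fragments. A mock peak lay 850 bp away and 5 other replicate peaks lay within 10 kb. Whether plastid DNA contributed fragments was not tested.

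The regions covered all 7 D chromosomes. They numbered 157 on 1D, 143 on 2D, 166 on 3D, 150 on 4D, 188 on 5D, 138 on 6D and 165 on 7D. Per 100 Mb this was 33.0 on 5D, the highest, 31.5 on 1D and 21.8 on 2D, the lowest. Per 1000 protein-coding genes 4D had most, with 39.8, and 2D again least, with 24.8. The gene share ranged from 56.5% on 6D (Wilson 48.2 to 64.5%) to 63.8% on 5D (56.7 to 70.4%), and these intervals overlap. Median fragments were 10 or 11 in replicate 1 and 9 or 10 in replicate 2 on every D chromosome.

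**Figure D4:**
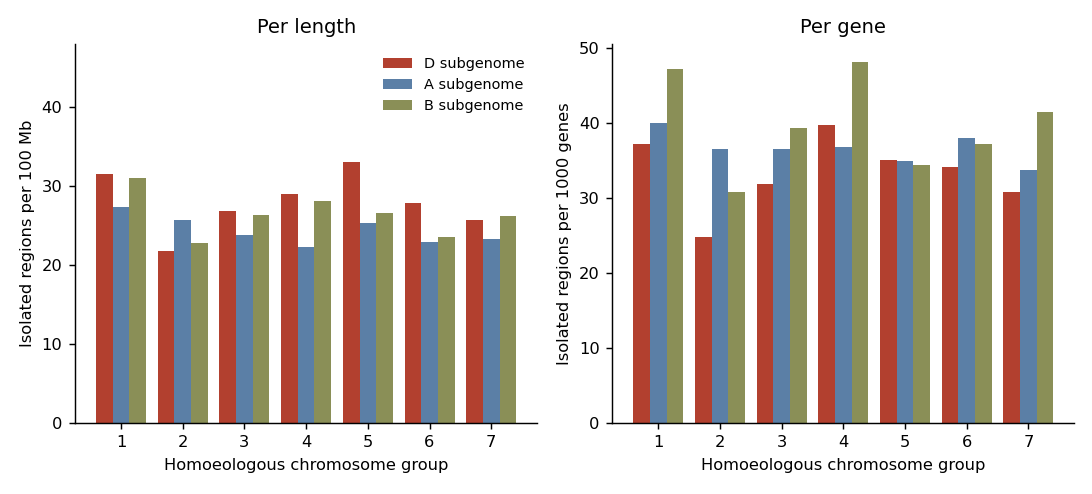
Isolated regions per 100 Mb (left) and per 1000 protein-coding genes (right) for each homoeologous chromosome group, with D, A and B side by side. Per length, 5D is highest among D chromosomes at 33.0 and 2D lowest at 21.8, while per gene 4D is highest at 39.8.

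Regions followed the gene-rich chromosome ends less closely than genes do. The outer 10% at each end held 292 of the regions (26.4%, Wilson 23.9 to 29.1%) and 36.5% of the protein-coding genes. This was not particular to D: the shares were 26.1% of isolated regions and 38.4% of genes on A, and 22.8% and 34.3% on B. In bins of 10% of chromosome length, the last held 165 regions (41.2 per 100 Mb) and the first 127 (31.7 per 100 Mb). The fewest, 71 (17.7 per 100 Mb), lay in the bin from 30 to 40%. Per 1000 genes the order turned, with 59.0 regions in the bin from 30 to 40%, 21.8 in the first and 25.4 in the last. The gene share was highest, at 72.4% (62.2 to 80.7%), from 60 to 70% of the length and lowest, at 52.1% (40.7 to 63.3%), from 30 to 40%. The intervals of these bins, picked as the extremes, overlap. Bins run from the lowest coordinate up, and centromeres were not placed.

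**Figure D5:**
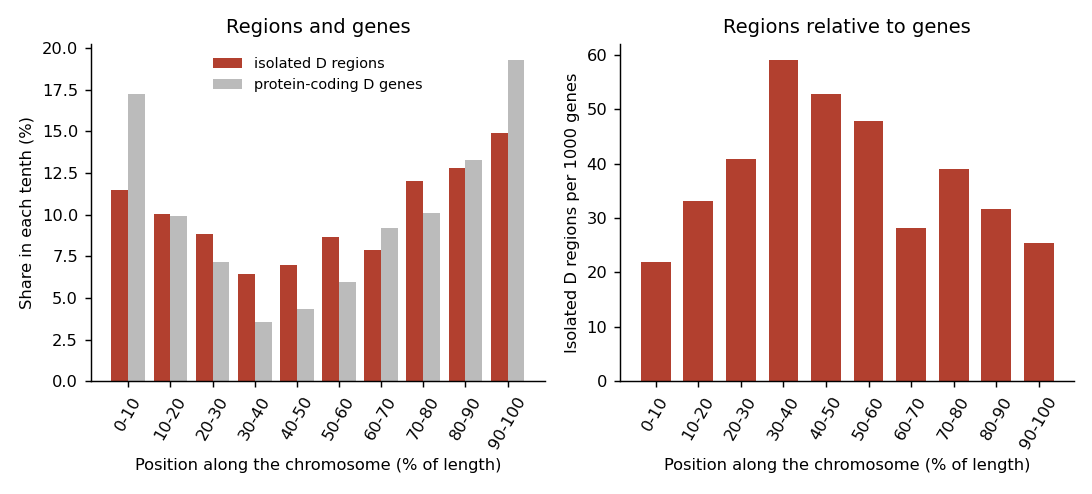
Position along the D chromosomes in bins of 10% of their length (horizontal): share of isolated D regions and of protein-coding D genes in each bin (left, percent) and regions per 1000 genes (right). The last bin holds 14.9% of regions and 19.3% of genes, and regions per 1000 genes are highest, at 59.0, from 30 to 40%.

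The spacing of the members was set in part by the rule that chose them, and is given as a description. The median distance from a member to the nearest mock-free region was 785980 bp, and 497 members had none within 1 Mb. At the limit itself, the closest members were 10006 bp from a neighbour and the farthest dropped D region 9978 bp. The peaks of the replicates overlapped by 40 bp or more in every member, where 1 bp was enough. Isolation was counted among mock-free regions alone: 195 members (17.6%) had another peak of a replicate within 10 kb, and 39 lay within 10 kb of a mock peak, the closest at 170 bp. The longest stretch with no member was 40.0 Mb on 2D, between 353560545 and 393525569.

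Set beside the same kind of region elsewhere, the isolated D regions were denser per length and sparser per gene. They numbered 27.7 per 100 Mb on D, 24.3 on A and 26.2 on B, but 32.8 per 1000 genes on D, 36.5 on A and 39.2 on B. Per 100 Mb, D was above A in 6 of 7 chromosome groups and above both in 5. Per 1000 genes, D was below both except on 4D (39.8, against 36.8 on 4A and 48.2 on 4B) and 5D (35.04, against 34.97 on 5A and 34.43 on 5B). The gene share was 61.2% on D, 58.3% on A (Wilson 55.5 to 61.1%) and 52.8% on B (50.2 to 55.4%). Relative to the sequence within the same reach of genes, the order was not the same, at 9.58-fold on D, 11.5-fold on A and 10.1-fold on B. Regions of 25 or more fragments made up 6.68% on D (5.36 to 8.31%), 10.2% on A (8.59 to 12%) and 14% on B (12.3 to 15.9%). Among regions of fewer than 15 fragments, the gene share was 69.1% on D (65.9 to 72.0%), 65.7% on A (62.6 to 68.7%) and 64.5% on B (61.4 to 67.4%). These differences between subgenomes were not tested, since all regions come from the same libraries and no subgenome has replicates of its own.

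Other regions of the D chromosomes were taller and less often at genes. The 342 clustered ones had medians of 20 and 16 fragments in the replicates and a gene share of 41.8% (Wilson 36.7 to 47.1%). The 227 shared regions with a mock peak had 41 and 31 fragments and a gene share of 19.4% (14.8 to 25.0%). A peak call in the mock, which had 0.449 of the depth of replicate 1, favours tall regions. The height of this group is thus set in part by the sorting, and what set its gene share was not tested. At fewer than 15 fragments, the share was 68.3% of the 126 clustered regions, beside 69.1% of the 873 isolated ones. Of the regions with a mock peak, only 15 were that low, and 1 of them was at a gene (6.67%, 1.19 to 29.8%).

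The mock was the shallowest library. It had 0.449 of the depth of replicate 1, and its lowest peak at the lowest background had 5 fragments. Scaled to that depth, 663 of the 1107 members (59.9%) would fall short of 5 fragments. Among members at genes 30.3% would reach it, and among the others 55.6%. For most members at genes the scaled number was thus below that of the lowest such mock peak. Over all members its median was 4.94, just under 5, and counts vary around a scaled number. How often a mock peak of matching size would be called was not tested.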

How the data were processed

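Each library has its own narrowPeak list, called separately and deposited by the authors: replicate 1 has 12848 peaks, replicate 2 has 8401, and the mock 1754. Tools in the submitters' processing notes are MACS2 2.2.7.1, Trimmomatic 0.39 and bcl2fastq 2.17; which aligner, build and options were used is not given in the sources used here. Deposited fold enrichment is a ratio at the summit, and its −log10 p and −log10 q and the score derived from q are the authors' too, with a lowest −log10 q of 1.31 in each list. The score was not used.

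Fold and −log10 p together fix a whole number of fragments and a local background under the formulas of MACS2, within a relative tolerance of 1e-04 for 100% of peaks. The fold adds 1 to both, which lowers it most at low background. Background steps gave 41.2, 29.6 and 18.5 fragments per 10 kb for replicate 1, replicate 2 and the mock. Fragments carry no molecular identifiers, and all intervals cover counting error only.

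The summit of the replicate with the higher fold was used. As no build is named, the join to the gene table was checked: 28.1% of members lay within 500 bp of a gene edge, 8.85% after a move of 2000 bp and 2.26% after one of 1000000 bp. Chromosome length was taken as the last annotated or called base. The table gives no strand, products or sequence, so the planned motif, homoeologue and product lists were not run. Named genes are the 20 of highest mean percentile rank of fold at members within 2000 bp, those with common names, and the 10 top regions. Members, lists and alternatives were chosen with earlier results of these data known. No test between libraries was made, as the mock has 1 library. Python 3.11.15, numpy 2.4.6, pandas 2.3.3 and scipy 1.17.1 were used, and the code was tested on simulated data.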

Additional observations from a re-analysis of the deposited data

How the results depend on the processing

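Alternatives gave 72 values for these results: the number of members, their gene share, the number of genes, the share in the outer 10% of chromosome ends and the median ratio of replicates. Of the 72, 55 stayed within 1.5 times the main count or within the interval of the main value. Keeping only peaks whose −log10 q reached 5, in the mock as well, left 517 members and 261 genes. Their gene share was 46.4% and their ratio 0.870. Without the isolation rule the gene share was 56.6% and the ratio 0.893. With either replicate alone, members numbered 1253 to 1819, the gene share was 55.9 to 61.7%, and genes numbered 828 to 1075. With mock peaks not used, the gene share was 56.6%. By gene distance it was 45% in gene bodies, 55.4% at 500 bp and 65.9% at 5000 bp. Members of 25 or more replicate 1 fragments, a choice made after seeing the data, numbered 74, at 14 genes. Their gene share was 17.6%, their outer share 40.5% and their ratio 0.736. Members over 10 kb from any mock peak, or with no other peak within 10 kb, also chosen later, had gene shares of 62.2% in each case. The counts differ because fewer or more peaks qualify. The cause of the other moves was not tested. No paired analysis was possible because the lone mock shares no 2 numbers with the replicates. The alternatives on motifs and homoeologues were not run, since sequence was not used here. Depth limits the set to regions of at least 6 fragments in each replicate.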

Other observations

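Some isolated D regions lay at genes that do not code for proteins. Near tRNA genes, which encode the adaptors of translation, lay 18 regions within 2000 bp (1.63%, Wilson 1.03 to 2.56%), on 0.104% of the D sequence. They had medians of 18 and 13.5 fragments, against 11 and 10 over all members, and stood on backgrounds of 89.7 and 58.2 fragments per 10 kb. The tallest by fold, on 1D from 188568393 to 188569417, was near a TRNAM-CAU gene and had 43 fragments in each replicate, with folds of 18.1 and 19.6. The next, on 7D from 581177485 to 581178118, was near another TRNAM-CAU gene, with 39 and 24 fragments and folds of 15.4 and 12.8. Near rRNA genes lay 2 regions, of which the one on 4D from 451507928 to 451508158 had 32 and 30 fragments and folds of 17.8 and 18.4. Long non-coding RNA genes had 37 regions near them (3.34%, on 0.946% of the sequence) and pseudogenes 46 (4.16%, on 1.37%). Of these, 27 and 36 lay away from protein-coding genes, as did 14 of the 18 near tRNA genes. The others are also among the 677 regions at protein-coding genes. Near snRNA genes, whose RNAs serve in splicing, lay 3 (0.271%, on 0.0235% of the sequence). Near the 704 snoRNA genes lay 0 (Wilson upper end 0.346%), on 0.0282% of the sequence, which is too little for the 0 to be informative.

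The fullest 10 Mb of the D chromosomes was on 3D from 60 to 70 Mb, with 14 isolated regions where the mean over 402 windows was 2.75. All 14 were low, with 8 to 15 fragments in replicate 1 and 7 to 13 in replicate 2, and 9 lay at genes. The closest of them were 13.9 kb apart. No other window held more than 9, and 37 held none.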
